A study of Mus musculus with 14 samples.

Results

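The comparison of THY-Tau22 with WT mice in the untrained state rested on 5 male mice, of which 3 were WT and 2 carried the transgene. All were 8 months old, and 1 poly-A RNA-seq library was made from the dorsal hippocampus of each. All 26570 genes of the basal table were considered, and 16324 of them had enough counts to be tested. THY-Tau22 mice are heterozygous for a transgene of mutated human Tau (MAPT) under the Thy1.2 promoter, which is active in neurons, and are kept on a C57BL6/J background. Their WT littermates lack the transgene, and the labels describe both groups as resting (basal) and name no training or injection. The other 9 libraries of the series came from 8-month-old mice that had been injected 3 times. Of these, 4 are set beside the untrained mice here: 2 WT VEH libraries (WT, trained in a spatial task, saline) and 2 TAU VEH libraries (THY-Tau22, trained in the same task, injected with the carrier spheres CSP). The others are 3 WT VEH_HC (WT, saline, home cage) and 2 TAU MOL libraries (THY-Tau22, trained, CSP-TTK21, an acetyltransferase activator). They enter only the fit of all 14 libraries, which gave every p-value for trained mice and for the difference between the states. The study left out 3 further samples of the trained experiment, all from 1 litter, for great variability, by criteria decided after the fact. The groups were small, and the spread between THY-Tau22 mice rests on 2 values.

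Tau is a neuronal protein that binds microtubules, and in tauopathies it becomes heavily phosphorylated and gathers in tangles inside neurons. The hippocampus holds several layers of excitatory neurons (CA1, CA2 and CA3 pyramidal cells and the granule cells of the dentate gyrus), scattered inhibitory interneurons, and the glial cells around them. Astrocytes clear glutamate and supply neurons with cholesterol, oligodendrocytes wrap axons in myelin, and microglia are the resident immune cells. RNA-seq of whole tissue sums over all of these, so fewer cells of a type and less RNA per cell cannot be told apart.

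The libraries held 28639121 to 37681155 counts assigned to genes, and expression is given below as CPM, counts per 1e6 after scaling by the trimmed mean of M values (TMM). At this depth 3 counts amount to 0.0811 to 0.101 CPM. Camk2a, a calcium-dependent kinase of excitatory neurons, was abundant in every library, between 5031 and 6489 CPM. Markers of tissue next to the hippocampus varied from mouse to mouse. Summed over 15 markers, choroid plexus, the secretory epithelium of the ventricles, reached 345, 445 and 279 CPM in the WT libraries and 408 and 1329 CPM in the THY-Tau22 libraries, so that THY-Tau22 2 stood apart. WT 3 stood apart for the habenula (5 markers, 25.8 CPM against 4.54 to 6.72 CPM in the other 4 libraries), and THY-Tau22 1 for fibroblasts and meninges (10 markers, 262 CPM against 103 to 171 CPM). A cerebellar set, added after the values had been seen, had Car8, a Purkinje cell gene, at 19.8 CPM in THY-Tau22 2 against 1.70 to 2.64 CPM elsewhere. Summed over its 10 genes it was at 120, 48.4 and 114 CPM in WT and at 54.2 and 100.5 CPM in THY-Tau22 mice, so the sum did not separate the groups. Its median log2 fold change was 1.19, and -0.17 without THY-Tau22 2, -0.15 without WT 2 and 0.16 without WT 1. The 2 THY-Tau22 libraries also differed in trends across genes. Deviations from the gene means correlated with GC content across genes with a Spearman rho of 0.481 in THY-Tau22 1 and -0.600 in THY-Tau22 2, against 0.0670 to 0.323 in WT.

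**Figure D1:**
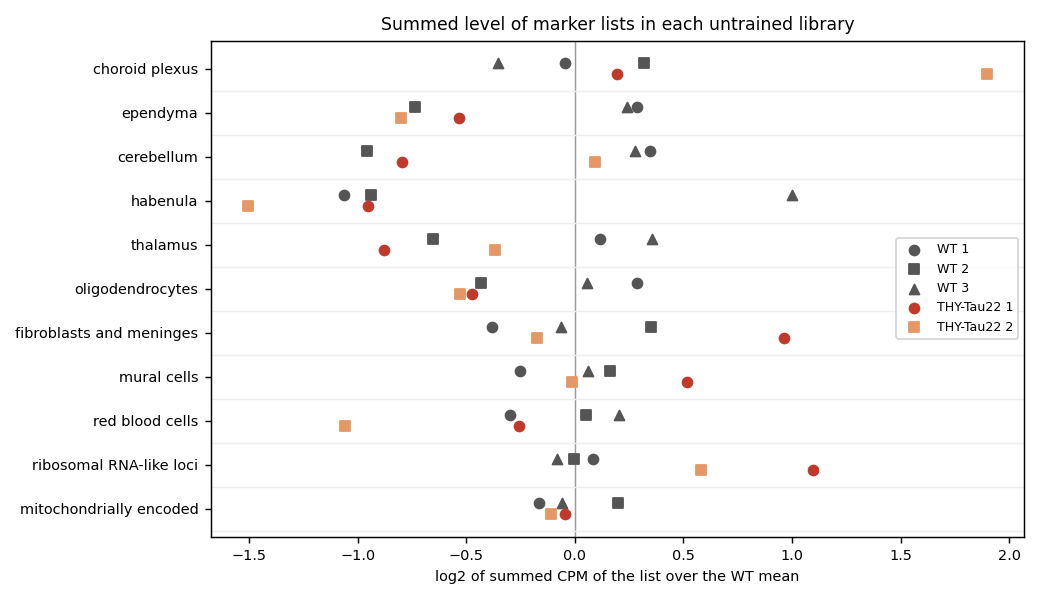
Summed CPM of 11 lists in each of the 5 untrained libraries, as the log2 ratio to the mean of the 3 WT libraries (each point is 1 library). Choroid plexus markers were highest in THY-Tau22 2, fibroblast markers in THY-Tau22 1 and habenula markers in WT 3, and for the ribosomal RNA-like loci both THY-Tau22 libraries exceeded all WT libraries.

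Of the 16324 genes, 4 passed edgeR's quasi-likelihood test (limits of 0.05 on the adjusted p and 0.2 on the size of the log2 fold change), which is 0.0245% of the genes tested. Thy1 rose (0.00613%), and Mvd, Nr4a1 and Arc fell (0.0184%). DESeq2, a second tool, called 40 genes (0.245%), of which 27 were higher (0.165%) and 13 lower (0.0796%). For gene groups, a second measure counts the genes for which both THY-Tau22 libraries lay above, or both below, all 3 WT libraries. Over all genes tested these were 1471 (9.01%) above and 1549 (9.49%) below, and a group's count is to be read against these shares. An unadjusted p under 0.05 was reached by 2.59% of genes with higher and 2.33% with lower expression in THY-Tau22 mice. "Rose" and "fell" are used only for genes that passed the named test, and other genes are given by their values.

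Thy1, a glycoprotein of the neuronal surface and the gene whose promoter drives the transgene, lies at chr9:43851467-43856662 (mm9). It stood at 831, 874 and 795 CPM in WT and at 2352 and 1842 CPM in THY-Tau22 mice. The groups did not overlap, and the difference was 1.33 ± 0.14 on the log2 scale (SE, edgeR adjusted p = 0.016, range over the alternatives 4.6e-19 to 0.11). Counts per gene do not tell the mouse's own Thy1 from any Thy1 sequence carried by the transgene. The 9 tested genes within 200 kb of Thy1 had none with both THY-Tau22 libraries outside the WT range. The mouse Tau gene Mapt was at 593, 530 and 551 CPM in WT and at 642 and 603 CPM in THY-Tau22 mice, a difference of 0.16 ± 0.12 that did not pass the test.

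**Figure D2:**
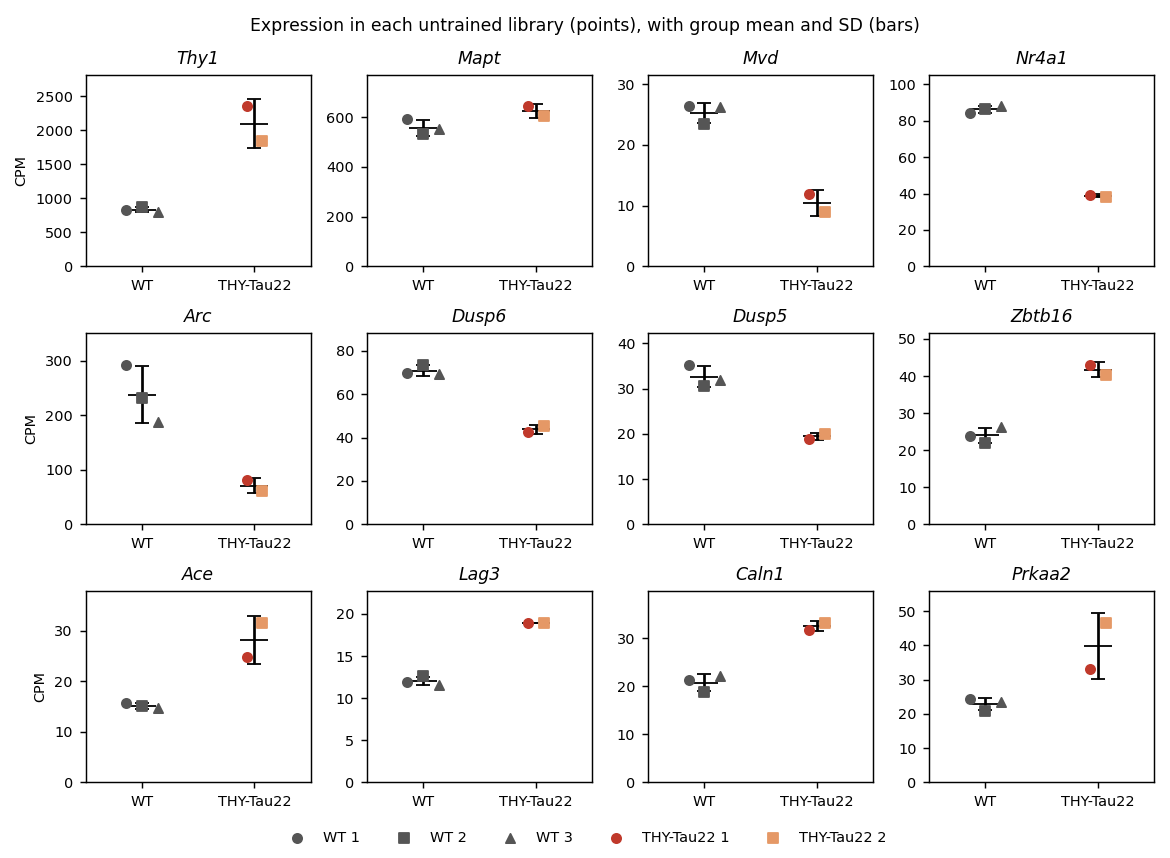
CPM of 12 genes in the untrained libraries (points, 1 per mouse), with the mean and SD of 3 WT and 2 THY-Tau22 libraries (bars) on linear axes from 0. Both THY-Tau22 libraries lie below (Mvd, Nr4a1, Arc, Dusp6, Dusp5) or above (Thy1, Mapt, by a small margin, Zbtb16, Ace, Lag3, Caln1, Prkaa2) all WT libraries.

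Mvd encodes mevalonate diphosphate decarboxylase, the enzyme that makes isopentenyl diphosphate, the building block of cholesterol and other isoprenoids. It stood at 26.3, 23.4 and 26.2 CPM in WT and at 11.9 and 8.96 CPM in THY-Tau22 mice. The WT values lay close together and every THY-Tau22 value was under the lowest of them, a difference of -1.28 ± 0.15 (edgeR adjusted p = 0.027). Correction for GC content and gene length left it at -1.18. In the trained mice, which are other animals, Mvd was at 23.7 and 23.6 CPM in WT VEH and at 10.1 and 10.6 CPM in TAU VEH, and it fell by 1.19 ± 0.13 there (edgeR adjusted p = 0.00049). Nr4a1, a nuclear receptor that neuronal activity induces within minutes, was at 84.1, 86.7 and 87.9 CPM in WT and at 39.5 and 38.2 CPM in THY-Tau22 mice, a fall of 1.15 ± 0.11 (edgeR adjusted p = 0.016). Arc, whose product acts in the removal of AMPA receptors from synapses, was at 293, 233 and 189 CPM and at 80.8 and 61.7 CPM, and fell by 1.74 ± 0.20 (edgeR adjusted p = 0.026). These calls rested on few mice: without WT 2 none of the 4 genes passed (edgeR adjusted p = 0.0831 for Thy1, 0.0731 for Nr4a1, 0.107 for Arc and 0.106 for Mvd), and without WT 3 Arc alone did (edgeR adjusted p = 0.00423), with adjusted p = 0.0517 for Thy1, 0.0517 for Nr4a1 and 0.0555 for Mvd. Without THY-Tau22 2 the adjusted p in edgeR was 0.214 for Arc and 0.0848 for Mvd, and without THY-Tau22 1 it was 0.0724 for Arc, while Thy1 and Nr4a1 passed in both cases.

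The upstream windows of Nr4a1, Mvd and Arc are printed because the 3 genes fell and belong to lists with many lower members, immediate early genes and cholesterol synthesis. Each is the 250 bases before the annotated gene start (mm9, gene models of GENCODE M1), read 5′ to 3′ on the strand of the gene. The Nr4a1 window is chr15:101097027-101097276, plus strand, and capitals mark the letters of the shortened cAMP response element TGACG, here all 4 on the opposite strand as CGTCA. The Mvd window is chr8:124967323-124967572, minus strand, and capitals mark the CCAAT box, once as ATTGG on the opposite strand and once as CCAAT. The Arc window is chr15:74503001-74503250, minus strand, and has no capitals because TGACG was not found in it.
Nr4a1: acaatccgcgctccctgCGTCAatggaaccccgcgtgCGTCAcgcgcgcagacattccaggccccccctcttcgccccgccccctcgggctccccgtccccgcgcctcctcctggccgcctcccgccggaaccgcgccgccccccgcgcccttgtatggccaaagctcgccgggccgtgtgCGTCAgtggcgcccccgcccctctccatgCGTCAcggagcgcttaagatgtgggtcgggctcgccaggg
Mvd: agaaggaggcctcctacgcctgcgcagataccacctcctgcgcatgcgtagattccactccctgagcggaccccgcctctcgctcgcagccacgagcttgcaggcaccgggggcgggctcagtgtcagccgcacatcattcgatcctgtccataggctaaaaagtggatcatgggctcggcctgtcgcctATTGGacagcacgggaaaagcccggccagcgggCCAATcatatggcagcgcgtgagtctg
Arc: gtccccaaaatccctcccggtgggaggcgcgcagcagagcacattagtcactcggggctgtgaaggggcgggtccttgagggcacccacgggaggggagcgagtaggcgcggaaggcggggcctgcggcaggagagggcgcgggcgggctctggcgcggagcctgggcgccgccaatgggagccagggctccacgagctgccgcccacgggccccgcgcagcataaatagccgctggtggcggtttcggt
The 4 matches upstream of Nr4a1 begin 233, 213, 69 and 40 bases before the gene start, and the CCAAT boxes of Mvd begin 60 and 27 bases before it. TGACG was present on either strand in 24.0% of 14959 protein-coding windows of the same length, in 18 of 24 immediate early genes and in 10 of 19 genes of cholesterol synthesis. CCAAT was present in 34.8% of all windows, in 14 of 19 genes of cholesterol synthesis and in 7 of 24 immediate early genes. The letters TCACNCCAC, a form of the sterol regulatory element, were found in 0.969% of windows and in 0 of 19 genes of cholesterol synthesis. These are matches of letters, and no binding was measured here.

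Mvd lies at chr8:124957496-124967322 on the minus strand and overlaps the annotated locus Gm20388, with which its reads can be shared. Its nearest neighbours were lower too. Cyba, which encodes the p22phox subunit of NADPH oxidase and starts 656 bases from the end of Mvd, was at 12.9, 11.4 and 11.9 CPM in WT and at 9.68 and 7.98 CPM in THY-Tau22 mice (-0.45 on the log2 scale). The RIKEN transcript 9330133O14Rik begins 234 bases from the start of Mvd, inside the printed window, and was at 4.65, 4.05 and 5.12 CPM in WT and at 3.69 and 2.83 CPM in THY-Tau22 mice (-0.50). Rnf166, a ubiquitin ligase gene 22.7 kb away, was at 30.4, 34.4 and 29.2 CPM in WT and at 27.1 and 21.1 CPM in THY-Tau22 mice (-0.38). For all 3 genes both THY-Tau22 libraries lay below all WT libraries, but none passed the adjusted test in untrained mice. Zc3h18, 16.2 kb away on the other side of Cyba, did not share this, with a log2 fold change of 0.01. Over the 14 tested genes within 200 kb, a window chosen after the values had been seen, 3 lay below and 0 above all WT libraries, and the median log2 fold change was -0.14. In the trained mice Cyba fell from 10.3 and 10.1 CPM in WT VEH to 5.31 and 5.79 CPM in TAU VEH (log2 fold change -0.88, edgeR adjusted p = 0.0057), 9330133O14Rik had a log2 fold change of -0.74 (edgeR adjusted p = 0.050), Rnf166 of -0.37 (edgeR adjusted p = 0.11) and Zc3h18 of -0.01. The other gene there that passed in trained mice was Zfpm1, a cofactor of GATA factors (-0.86, edgeR adjusted p = 0.015), which was at -0.04 in untrained mice.

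**Figure D3:**
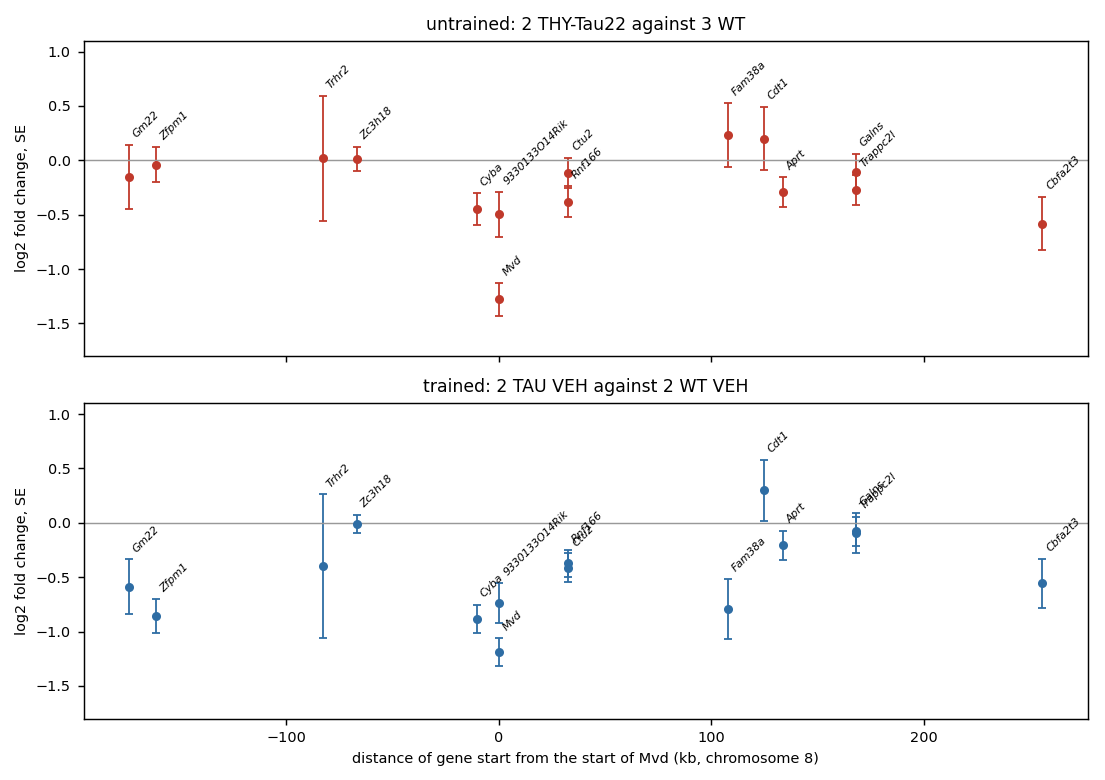
Log2 fold change with SE (edgeR) of Mvd and the tested genes within 200 kb of it, measured between gene bodies, against the distance of each gene's start from the start of Mvd in kb. The upper panel has 2 THY-Tau22 against 3 WT untrained libraries, and the lower panel 2 TAU VEH against 2 WT VEH libraries. In both, Mvd, Cyba, 9330133O14Rik and Rnf166 lie below 0 and Zc3h18 at 0.

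Cholesterol in the brain is made locally, largely by astrocytes and oligodendrocytes in the adult. Of 19 tested enzymes of the pathway, Mvd fell and none rose, and 13 (68.4%) had both THY-Tau22 libraries below all WT libraries. The median log2 fold change was -0.16 (-0.26 without THY-Tau22 1 and -0.11 without THY-Tau22 2), against -0.01 over all genes. Sc4mol, a sterol C4 demethylation enzyme, was at 74.4, 81.6 and 81.7 CPM in WT and at 65.0 and 64.1 CPM in THY-Tau22 mice (-0.30 ± 0.11). Ebp, the sterol isomerase, was at 19.4, 21.1 and 19.5 CPM and at 17.2 and 14.1 CPM (-0.35 ± 0.13). Fdps, farnesyl diphosphate synthase, and Cyp51, lanosterol demethylase, were at -0.29 and -0.31. These 4 genes did not pass the adjusted test, and Idi1, Lss, Hsd17b7 and Dhcr7 were among the genes that overlapped between groups. In trained mice the median of the same 19 genes was -0.01, with 10 below and 9 above 0 (7647 and 8677 over all genes). None of the 19 passed the test of the difference between the states. Genes of cholesterol regulation and uptake had a median of -0.08 (-0.04 without WT 3 or either THY-Tau22 library) with no gene outside the WT range. Those of fatty acid synthesis had a median of 0.00. Among the genes of export and turnover, Abca1, the pump that loads cholesterol on apolipoproteins, was at 36.8, 28.8 and 38.2 CPM in WT and at 41.8 and 54.6 CPM in THY-Tau22 mice (0.48).

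Neuronal activity raises intracellular calcium and the ERK kinases, which switch on a first wave of immediate early genes. Of the 24 listed, 2 fell (Arc and Nr4a1), 13 lay below all WT libraries, and the median was -0.50. DESeq2 called 8 of them lower. Besides Arc and Nr4a1, Egr2 was at 5.32, 4.83 and 3.05 CPM in WT and at 1.74 and 1.48 CPM in THY-Tau22 mice (-1.45). Sik1, a kinase that restrains CREB coactivators, was at 13.3, 10.5 and 12.4 CPM in WT and at 6.36 and 7.54 CPM in THY-Tau22 mice (-0.80 ± 0.16). Nr4a3 was at 148, 134 and 113 CPM and at 89.6 and 97.2 CPM (-0.50 ± 0.13). Npas4, the early factor of inhibitory synapse formation, was at 14.9, 7.41 and 5.53 CPM and at 4.62 and 4.34 CPM (-1.05). In trained mice 21 of the 24 genes had a log2 fold change below 0 and 4 were called lower. Over all 16324 genes in trained mice, 7647 were below 0 and 315 were called lower. In untrained mice Trib1, Ier2 and Egr4 were likewise separated, whereas Fosb, Klf4 and Nr4a2 overlapped (-0.07, -0.04 and -0.30). The delayed effectors that this wave induces had a median of 0.12 over 16 genes, which was -0.09 without THY-Tau22 2, with 1 gene above all WT libraries (Sorcs3, 0.40) and 1 below (Gadd45b, -0.40), and Bdnf was at 0.01.

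The ERK pathway also induces its own inhibitors. Of 10 such feedback genes none passed edgeR's test in the 5 libraries, 5 lay below and 0 above all WT libraries, and DESeq2 called 4 lower. Dusp6, a phosphatase of ERK (chr10:98725865-98730122, mm9), was at 69.8, 73.6 and 69.1 CPM in WT and at 42.3 and 45.1 CPM in THY-Tau22 mice. The gap between the groups was wide against the spread within them, with a log2 fold change of -0.70 ± 0.11 (adjusted p = 0.14 in edgeR, 9.2e-05 in DESeq2). Dusp5, a nuclear ERK phosphatase, was at 35.3, 30.7 and 32.0 CPM and at 18.9 and 20.0 CPM (-0.75, adjusted p = 0.14 in edgeR), and it fell by 0.41 in trained mice (edgeR adjusted p = 0.049). Spry4, an inhibitor of growth factor signalling upstream of ERK, was at 19.3, 19.0 and 20.2 CPM and at 12.1 and 12.96 CPM (-0.64). Dusp4 was at -0.32. Spry2, Spred1, Spred2, Etv4 and Etv5 stayed between -0.05 and 0.07, so that the lower members were the Dusp phosphatases and Spry4.

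Genes that the endoplasmic reticulum induces when unfolded proteins gather had a median of -0.16 over 20 genes (-0.25 without THY-Tau22 2 and -0.12 without WT 2). Of these, 9 lay below and 0 above all WT libraries. Xbp1, the transcription factor of this response, was at 93.1, 111 and 75.8 CPM in WT and at 68.6 and 60.9 CPM in THY-Tau22 mice (-0.53). Creld2 was at 15.9, 16.6 and 13.5 CPM and at 10.5 and 10.4 CPM (-0.55), and Manf, a secreted survival factor of the same response, at 50.3, 61.0 and 46.0 CPM and at 40.5 and 38.1 CPM (-0.41). Sdf2l1, Pdia4 and Herpud1 were at -0.50, -0.38 and -0.32. None of these passed the adjusted test, and the chaperone Hspa5 overlapped between groups (-0.29). In trained mice the median of these genes was -0.08.

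**Figure D4:**
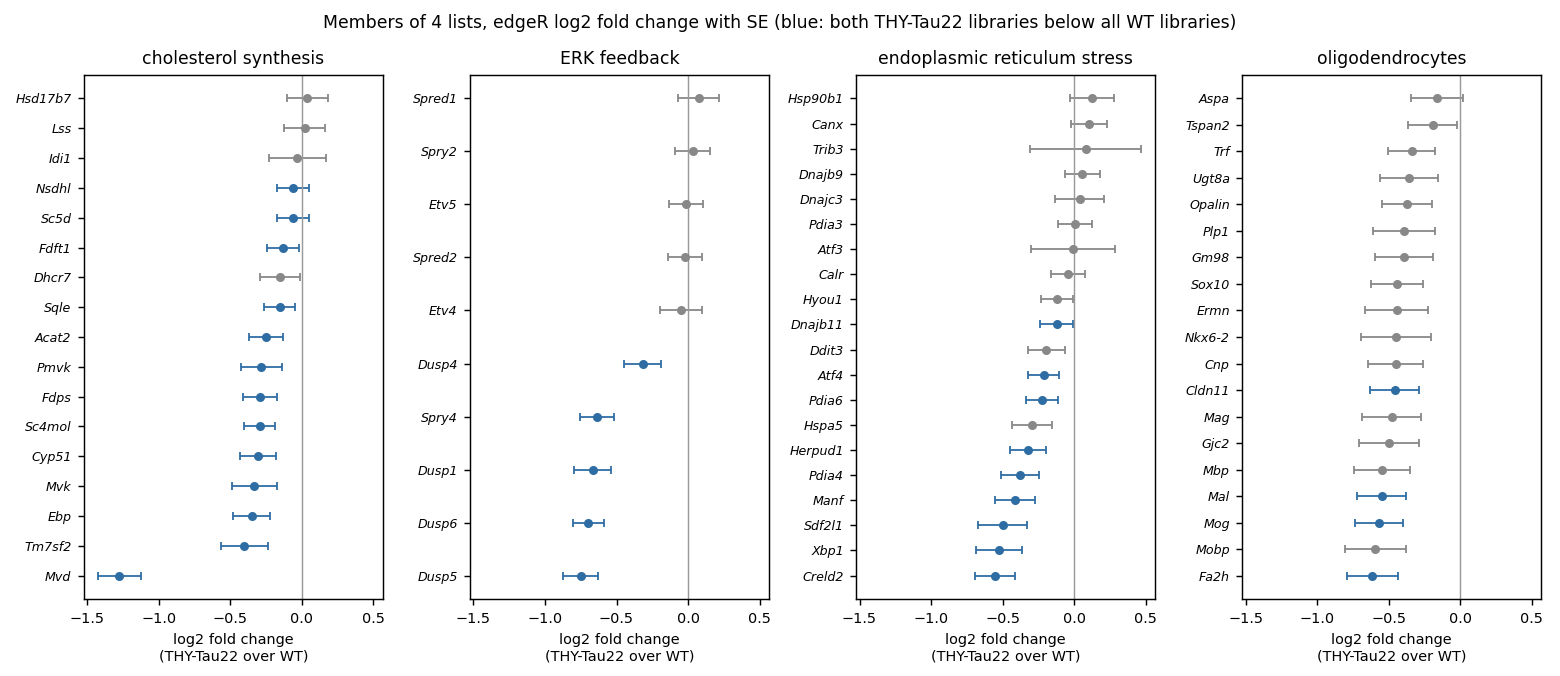
Log2 fold change (THY-Tau22 over WT, edgeR, with SE) of tested members of 4 lists, ordered by value, in which blue marks genes with both THY-Tau22 libraries below all WT libraries. Mvd lies apart from the other genes of cholesterol synthesis, the 5 lower genes of ERK feedback lie between -0.32 and -0.75, and all 19 oligodendrocyte genes lie below 0 with 4 of them separated.

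Microglia show a resting state, marked by P2ry12 and Tmem119, and a state seen around protein deposits, marked by Clec7a, Itgax and lysosomal genes. Of the 14 resting genes 5 (35.7%) lay above all WT libraries, with a median of 0.13. P2ry12 was at 28.2, 32.7 and 29.1 CPM in WT and at 27.9 and 33.7 CPM in THY-Tau22 mice (0.04), and Tmem119 was at -0.15. Fcrls, an Fc receptor-like gene of microglia, was at 28.9, 33.8 and 27.0 CPM and at 38.0 and 37.7 CPM (0.34), and Cx3cr1, the fractalkine receptor, at 0.30. Of 24 disease-associated genes, 13 (54.2%) lay above all WT libraries and 1, the ferritin gene Fth1, below, with a median of 0.21, and DESeq2 called 3 higher. Clec7a, a receptor for fungal glucans, was at 0.757, 0.316 and 0.566 CPM in WT and at 1.77 and 5.12 CPM in THY-Tau22 mice (2.64), and it rose in trained mice (2.80, edgeR adjusted p = 0.034). Cst7, a cathepsin inhibitor, was at 0.324, 0.431 and 0.157 CPM and at 1.05 and 1.62 CPM (2.103). Lyz2, lysozyme, was at 6.81, 7.99 and 7.35 CPM and at 11.1 and 15.4 CPM (0.85). The receptor Trem2 and its adaptor Tyrobp were at 0.15 and 0.19 and Apoe at -0.07, so the higher genes were a portion of the group. The 2 THY-Tau22 mice differed in the size of these values, with Clec7a and Lyz2 higher in THY-Tau22 2, the library that also had the most choroid plexus RNA.

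Complement genes, which tag material for removal, had 9 of 16 above and 0 below all WT libraries and a median of 0.26. Another 3 had a log2 fold change below 0, the lowest at -0.85. C3ar1, a complement receptor on microglia, was at 0.80. C1qb, a chain of the initiating complex, was at 72.0, 71.8 and 66.96 CPM in WT and at 87.3 and 81.9 CPM in THY-Tau22 mice (0.27). Presentation of antigen by MHC class I had 6 of 9 genes above, with H2-T23 at 4.94, 4.54 and 5.40 CPM in WT and at 6.70 and 7.47 CPM in THY-Tau22 mice (0.51) and the peptide transporter gene Tap1 at 0.53. MHC class II had 4 of 7 above at low levels, with a median of 0.60 (0.36 without WT 1), and its master regulator Ciita was at 0.675, 0.833 and 0.786 CPM in WT and at 1.36 and 1.25 CPM in THY-Tau22 mice (0.77). Interferon-induced genes were less even between the mice, with a median log2 ratio to WT of 0.05 in THY-Tau22 1 and 0.46 in THY-Tau22 2, and 5 of 23 genes above all WT libraries. Lgals3bp, a secreted glycoprotein of this group, was at 21.5, 19.4 and 22.8 CPM in WT and at 29.1 and 33.5 CPM in THY-Tau22 mice (0.56). In trained mice the medians were 0.35 for complement, 0.04 for MHC class I, 0.11 for MHC class II and 0.21 for interferon-induced genes. There Lgals3bp was at -0.28, Tap1 at -0.02 and Ciita at 0.02.

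In astrocytes, the 18 resting genes had a median of 0.02, and the glutamate transporter gene Slc1a2 was at 1934, 2105 and 2044 CPM in WT and at 2180 and 3018 CPM in THY-Tau22 mice (0.36, and 0.21 with the correction for GC content and length). The 25 tested reactive genes had a median of 0.29 with 8 (32.0%) above and 0 below all WT libraries. Osmr, the oncostatin M receptor subunit, was at 3.32, 3.48 and 4.05 CPM and at 5.74 and 9.26 CPM (1.05). Aspg, Cd14 and Cp were at 0.82, 0.59 and 0.40 (Cp at 0.26 with the correction), whereas the filament gene Vim was at -0.04. In trained mice the reactive genes had a median of 0.35, and 22 of the 25 were above 0, against 8677 of all 16324 genes.

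Every tested gene of mature oligodendrocytes was lower on average in THY-Tau22 mice. The median of the 19 genes was -0.45 (-0.27 without WT 1), yet 4 lay below all WT libraries, because WT 2 was low: summed over the list the WT libraries had 13308, 8097 and 11351 CPM and the THY-Tau22 libraries 7877 and 7560 CPM. Mog, a protein of the myelin surface, was at 119, 76.7 and 98.9 CPM in WT and at 66.7 and 65.9 CPM in THY-Tau22 mice (-0.57). Fa2h, which makes the hydroxylated lipids of myelin, was at 94.6, 59.1 and 79.0 CPM and at 53.8 and 47.5 CPM (-0.61). Mbp, myelin basic protein, was at 6260, 3862 and 5301 CPM and at 3872 and 3165 CPM (-0.55), so that WT 2 and THY-Tau22 1 did not differ. None passed the adjusted test. Precursors of oligodendrocytes had a median of -0.12 (-0.03 without THY-Tau22 2 and -0.21 without WT 2) with none of 10 outside the WT range, and in trained mice the median of the mature genes was -0.01. Thalamic markers were likewise lowest in WT 2 among the WT libraries (149, 87.2 and 175 CPM in WT, 74.4 and 106 CPM in THY-Tau22 mice, summed over 7 genes), as did ependymal markers (70.4, 34.7 and 68.2 CPM against 39.9 and 33.1 CPM over 5 genes), and the part of dissection in the oligodendrocyte values was not tested.

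Endothelial genes had a median of 0.13, which was -0.03 without THY-Tau22 1, with 5 of 16 above all WT libraries, and Slco1a4, a transporter of the blood-brain barrier, was at 0.32 (0.20 with the correction for GC content and length). All 4 lists of vessel and border cells differed between the 2 THY-Tau22 mice. Endothelial genes had median log2 ratios to WT of 0.20 in THY-Tau22 1 and -0.05 in THY-Tau22 2, mural cell genes of 0.48 in THY-Tau22 1 and -0.23 in THY-Tau22 2, and fibroblast genes of 1.02 and -0.35. Choroid plexus genes showed the opposite order, 0.11 and 1.42. Ttr, transthyretin, the main choroid product, was at 259, 369 and 198 CPM in WT and at 321 and 1158 CPM in THY-Tau22 mice, and the groups overlapped. Haemoglobin and other red cell genes had a median of -0.53 (-0.27 without THY-Tau22 2 and -1.07 without THY-Tau22 1), and Hbb-b2 was at 6.32, 8.16 and 7.73 CPM in WT and at 5.24 and 3.47 CPM in THY-Tau22 mice (-0.76).

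Among the neuron classes, CA3 genes had a median of 0.02 (-0.06 to 0.19 with 1 library left out) and dentate granule cell genes of 0.02 (-0.06 to 0.19 with 1 library left out), and Prox1, the granule cell factor, was at 96.6, 134 and 96.1 CPM in WT and at 117 and 106 CPM in THY-Tau22 mice. CA1 genes had a median of 0.22 with no gene outside the WT range, but of 0.01 without WT 1 and 0.06 without THY-Tau22 1, and Wfs1 was at 212, 141 and 226 CPM and at 196 and 160 CPM. In trained mice the CA1 median was -0.65 with all 7 genes below 0 and 2 called lower, among them Wfs1 (-0.90, edgeR adjusted p = 0.045). Of all 16324 genes in trained mice, 7647 were below 0 and 315 called lower. No CA1 gene passed the test of the difference between the states. Of the 7 CA2 genes, Pcp4, a calmodulin-binding peptide, was at 64.4, 68.9 and 79.3 CPM in WT and at 48.5 and 51.5 CPM in THY-Tau22 mice (-0.50 ± 0.13), with a median of -0.39 for the list (-0.21 without WT 3 and -0.24 without WT 1). Interneuron genes had 7 of 19 above and 0 below all WT libraries. Vip was at 5.89, 10.3 and 8.55 CPM in WT and at 10.9 and 16.5 CPM in THY-Tau22 mice (0.73), Erbb4, a neuregulin receptor, at 0.45 and Reln at 0.39 (0.24 and 0.22 with the correction for GC content and length), whereas Gad1, which makes GABA, was at 0.05. Calb2, calretinin, had the smallest p of the list and went the other way, at 49.9, 21.4 and 115 CPM in WT and at 10.9 and 23.4 CPM in THY-Tau22 mice (-1.86), with overlapping groups. Genes of immature neurons had a median of 0.05 (-0.01 to 0.06 with 1 library left out) and Dcx was at 0.22 (0.00 with the correction). Eomes, a marker of neuronal progenitors, was at 5.13, 1.24 and 8.52 CPM in WT and at 0.155 and 1.31 CPM in THY-Tau22 mice (-2.77), a spread within WT as wide as the gap to THY-Tau22 mice. Calb2 and Eomes were both highest in WT 3, where the summed habenula (25.8 CPM) and thalamic markers (175 CPM) were highest too. The part of neighbouring tissue in these values was not tested.

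**Figure D5:**
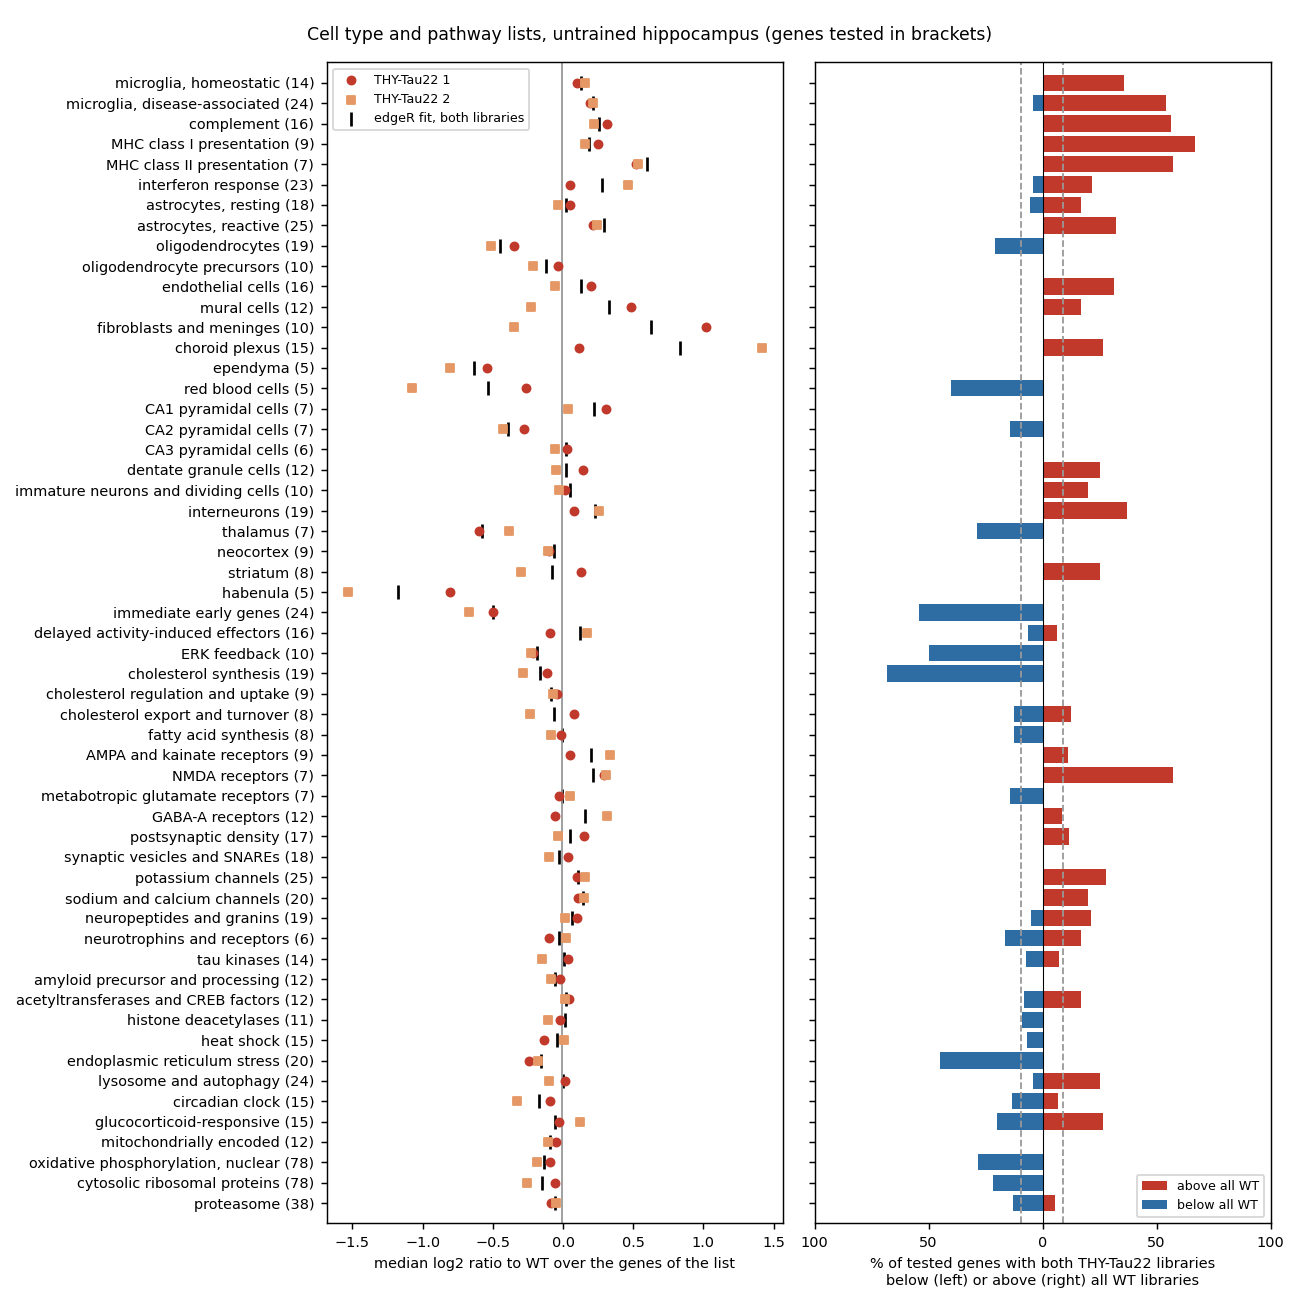
Left, median log2 ratio to the WT mean over the tested genes of each list for each THY-Tau22 library (points) and the median edgeR log2 fold change (bars). Right, share of tested genes of each list drawn in percent with both THY-Tau22 libraries below (blue) or above (red) all WT libraries, where dashed lines mark the shares over all genes, 9.49% and 9.01%. Cholesterol synthesis, immediate early genes, ERK feedback and endoplasmic reticulum stress reach the largest shares below, and MHC and complement genes, disease-associated microglial genes and NMDA receptors the largest shares above among the lists drawn, which leave out the ribosomal RNA-like loci, cerebellum and sex-linked genes.

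Among receptors for glutamate, 4 of 7 NMDA receptor genes lay above all WT libraries. Grin2b was at 42.5, 21.0 and 45.1 CPM in WT and at 57.7 and 59.9 CPM in THY-Tau22 mice (0.70), and Grin2a at 34.0, 15.8 and 31.1 CPM and at 39.7 and 47.4 CPM (0.69). Both subunit genes were low in WT 2, and neither passed the adjusted test. The obligatory subunit Grin1 overlapped between groups (-0.06). AMPA and kainate receptor genes had a median of 0.20, which became 0.05 with the correction for GC content and length and 0.05 without THY-Tau22 2. GABA-A receptor genes went from 0.16 to 0.05 with the correction and to -0.06 without THY-Tau22 2. Potassium channel genes had 7 of 25 above and 0 below, with Kcnma1, a calcium-activated channel, at 37.4, 23.5 and 35.9 CPM in WT and at 42.2 and 52.0 CPM in THY-Tau22 mice (0.55). Sodium and calcium channel genes had 4 of 20 above. Synaptic vesicle genes had a median of -0.03 (-0.08 to 0.04 with 1 library left out) with 0 of 18 outside the WT range, and genes of the postsynaptic density a median of 0.05 (-0.01 to 0.15 with 1 library left out).

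Genes that act on Tau or amyloid differed little. The 14 Tau kinase genes had a median of 0.01 (-0.12 without THY-Tau22 1), with Gsk3b at 0.14 and Cdk5 at -0.18. The 12 genes of amyloid processing had a median of -0.06 (-0.07 to -0.01 with 1 library left out) with none outside the WT range. Acetyltransferases and CREB factors, the enzymes that the drug of the learning experiment acts on among them, had a median of 0.02, and Crebbp was at 0.20. Histone deacetylases had a median of 0.01. The correction for GC content and length turned these medians to -0.09 and -0.13, and without THY-Tau22 1 that of the deacetylases was -0.09. Heat shock genes had a median of -0.04 (-0.13 to 0.03 with 1 library left out), in which Dnajb1 was the separated member, at 56.0, 59.8 and 54.1 CPM in WT and 45.8 and 40.9 CPM in THY-Tau22 mice (-0.39). Lysosomal and autophagy genes had a median of 0.00 with 6 of 24 above. Nuclear genes of oxidative phosphorylation and genes of cytosolic ribosomal proteins had a log2 fold change below 0 in 75 of 78 and 77 of 78 cases, against 8420 of all 16324 genes, with medians of -0.13 and -0.15, and none was called. The values lay further below 0 in THY-Tau22 2 (ribosomal protein median log2 ratio -0.25) than in THY-Tau22 1 (-0.06), and without WT 2 the medians were -0.065 for oxidative phosphorylation and -0.058 for ribosomal proteins. Further lists had medians of -0.05 for the proteasome (-0.09 to -0.01 with 1 library left out) and -0.09 for mitochondrially encoded genes (0.05 without WT 2). Medians were 0.07 for neuropeptides (0.04 to 0.14 with 1 library left out) and -0.03 for neurotrophins and their receptors (0.12 without WT 1). For metabotropic glutamate receptors the median was -0.01 (-0.11 to 0.07 with 1 library left out). Markers of neighbouring tissue had medians of -0.06 for neocortex (-0.17 to -0.04 with 1 library left out), -0.08 for striatum (0.13 without THY-Tau22 2), -0.58 for thalamus (-0.25 without WT 3), -0.64 for ependyma and -1.17 for habenula (-0.15 without WT 3), and 4 sex-linked genes one of 0.25 (-0.06 without THY-Tau22 2). The 15 circadian genes had a median of -0.17 (-0.06 without WT 2), and none was called. Of them 1 (6.67%) lay above all WT libraries, Arntl (0.32), and 2 (13.3%) below, its targets Dbp and Per2 (-0.47 and -0.26). These shares are near the 9.01% and 9.49% over all genes, and Per1 overlapped between groups (-0.41).

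Among the single genes with the smallest p were several that were higher in THY-Tau22 mice. Zbtb16, a zinc finger repressor that glucocorticoids induce (chr9:48462416-48644050, mm9), was at 23.8, 21.9 and 26.2 CPM in WT and at 43.1 and 40.3 CPM in THY-Tau22 mice (0.80 ± 0.12, edgeR adjusted p = 0.107 and DESeq2 adjusted p = 5e-05). Of the 15 glucocorticoid-responsive genes, 4 lay above all WT libraries (Zbtb16, Plin4, Nr3c2 and Klf9) and 3 below, with a median of -0.06 (0.14 without THY-Tau22 1). Plin4, a lipid droplet protein, was at 2.19, 1.81 and 2.20 CPM in WT and at 2.79 and 3.33 CPM in THY-Tau22 mice (0.57), and Fkbp5 was at 0.16. In trained mice Zbtb16 was at -0.07. Lag3, an immune checkpoint receptor also found on microglia, was at 12.0, 12.6 and 11.6 CPM and at 18.9 and 19.0 CPM (0.65). Caln1, a calcium-binding protein of neurons, was at 21.3, 18.8 and 22.1 CPM and at 31.8 and 33.3 CPM (0.65). Prkaa2, the catalytic alpha 2 subunit of the energy sensor AMPK, was at 24.3, 20.7 and 23.5 CPM and at 33.0 and 46.6 CPM (0.80). Ace, angiotensin-converting enzyme, was at 15.7, 15.0 and 14.6 CPM and at 24.7 and 31.5 CPM (0.90). In the other direction Serpinb1a, a protease inhibitor, was at 19.0, 13.7 and 18.8 CPM and at 9.86 and 8.86 CPM (-0.87). Lag3, Caln1, Prkaa2 and Zbtb16 passed when the untrained comparison was fitted together with the 9 other libraries, a fit that called 24 genes (12 higher, 12 lower).

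A group of annotated loci that resemble ribosomal RNA was higher in both THY-Tau22 mice. This group of 10 was put together after the values had been seen, and all 10 lay above all WT libraries, which is how they came to notice. Summed, they reached 3331, 3129 and 2965 CPM in WT and 6719 and 4702 CPM in THY-Tau22 mice. Lars2, a mitochondrial leucyl-tRNA synthetase gene whose 3′ end resembles ribosomal RNA in mouse, was at 2014, 1880 and 1798 CPM and at 3879 and 2811 CPM. Gm12913 (chr4:78419581-78420125, mm9) was at 273, 251 and 249 CPM and at 445 and 477 CPM (0.84, edgeR adjusted p = 0.075). The stretches of Gm12913 and of Gm12563 below are shown because their letters resemble those of the 18S and 28S ribosomal RNA. Both are from mm9, read on the forward strand, chr4:78420006-78420125 for Gm12913 and chr3:37380414-37380515 for Gm12563.
Gm12913: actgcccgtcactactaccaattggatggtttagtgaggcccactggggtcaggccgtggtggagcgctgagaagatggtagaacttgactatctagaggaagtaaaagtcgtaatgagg
Gm12563: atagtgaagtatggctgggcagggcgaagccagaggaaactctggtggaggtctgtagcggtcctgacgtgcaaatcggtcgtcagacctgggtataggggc
Gm12563 was at 348, 334 and 318 CPM in WT and at 692 and 472 CPM in THY-Tau22 mice. Reads from the many copies of ribosomal RNA genes can fall on such loci and the kit did not keep strand, so that the origin of these counts is uncertain. In the trained mice the median over the group was 0.18, against 0.81 in untrained mice.

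The genotype difference in untrained mice was also tested against the one in trained mice, in 1 edgeR fit of all 14 libraries. Of 17026 genes 22 (0.129%) passed, all with a higher value in the untrained contrast. The untrained contrast in that fit called 0.141% of genes and the trained one 353 genes (2.07%). Ace had the smallest adjusted p, with a log2 fold change in that fit of 0.88 in untrained and -1.93 in trained mice (edgeR adjusted p of the difference = 0.00029). Choroid plexus genes made up 7 of the 22. Their summed level, on the scale of the 14-library fit, was 327, 426 and 260 CPM in WT, 387 and 1226 CPM in THY-Tau22, 2551 and 1643 CPM in WT VEH and 255 and 304 CPM in TAU VEH, so the WT VEH libraries and THY-Tau22 2 held the high values. The median of the choroid plexus genes in the trained contrast was -2.38. Training, injections as far as the labels name them, and the cohort differed together between the experiments, and in the trained mice genotype and agent differed together too, so these cannot be told apart. Thy1 (1.32 untrained, 1.23 trained) and Mvd (-1.29 and -1.19) gave close values in both states of the 14-library fit. No gene of the immediate early, ERK feedback, cholesterol, microglial, complement or oligodendrocyte lists passed the test of the difference.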

How the data were processed

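Poly-A RNA of the dorsal hippocampus was sequenced as 50-base single-end reads from unstranded TruSeq v2 libraries. According to the submitters' processing notes, base calling used CASAVA 1.8.2, alignment to mm9 used TopHat2 2.0.10 with Bowtie2 2.1.0, and HTSeq 0.5.4p3 counted reads per gene of Ensembl 67. The deposited tables hold raw counts per gene and library, which were used for every test. Beside these is a normalised signal (counts divided by 1 factor per library by the authors), whose factors entered no test and served only the choice of named genes. Fold changes and p-values of the authors' own comparisons, also given there, were left out. Of the 26570 untrained genes 1976 had no count, and 138 lines of the learning table had no values.

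Counts were tested with edgeR 4.0.16 (quasi-likelihood F test, TMM, filterByExpr, Benjamini-Hochberg) in R 4.3.3, with the 5 untrained libraries alone. Genes were called at adjusted p under 0.05 and absolute log2 fold change above 0.2. The difference between states was a contrast in 1 fit of 14 libraries and 6 groups, over the genes in both tables. Gene positions, GC content and sequences came from the mm9 genome with GENCODE M1. DESeq2 1.42.0 was an alternative, beside other scalings and filters, a replicate block, a correction for GC content and length (loess, span 0.3), each library left out, and the 14-library fit, which was added after the data had been seen. The fits were tested on simulated data, and figures were drawn with matplotlib 3.10.9.

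The 57 gene lists were chosen with earlier results of these data known, and 2 further lists (cerebellum, ribosomal RNA-like loci) after the values had been seen. Some genes stand in more than 1 list. Genes were named by a rule: Thy1 and Mapt, the called genes, in each direction the 12 genes of smallest p with a mean of at least 100 normalised counts and both THY-Tau22 libraries outside the WT range, and in each list the called members, the 3 of smallest p and defining markers. Further members and the neighbours of Mvd were named after their values had been seen. Replicates are libraries of separate mice according to the study, and their number limits every p-value. The methods of the study give 3 mice per group in general, while for this comparison the study and the labels give 3 WT and 2 THY-Tau22 mice. Some members of the lists are counted but not reported here by name.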

Additional observations from a re-analysis of the deposited data

Results flagged for a closer look

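In 4 genes that the choroid plexus expresses, the genotype difference in untrained mice differed from that in trained mice by edgeR's test of the difference itself. As untrained minus trained log2 fold change, Ace differed by 2.805, F5 by 3.226, Kl by 1.962 and Slc4a5 by 4.396. For each, both untrained THY-Tau22 libraries lay above all WT libraries, and both TAU VEH libraries lay below both WT VEH libraries. The summed choroid plexus markers moved with these genes (highest in the WT VEH libraries and THY-Tau22 2), and their part in the differences was not tested.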

How the results depend on the processing

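The untrained comparison called 4 genes, and the number depended on the setting: 40 with DESeq2 (27 higher, 13 lower), 51 with edgeR's likelihood ratio test, 125 without a filter on low counts, 11 with a correction for GC content and length, 24 in the fit of all 14 libraries (added after seeing the data), and 4 with DESeq2 size factors, library size alone, a mean of at least 10 counts or no limit on the fold change. The replicate numbers 1 and 2 occur in both groups but only name the mice (correlation of deviations -0.065 for number 1 and -0.161 for number 2). With the replicate block 37 genes were called, and 1 (Arc) with the block and the GC correction. Leaving out 1 library gave 1 to 15 genes: 2 without WT 2, neither of them among the 4, 1 without WT 3, 15 without THY-Tau22 1 (3 of the 4 among them) and 7 without THY-Tau22 2 (2 of the 4), where the lone THY-Tau22 library is assumed to vary like WT. For the difference between untrained and trained mice, 22 genes were called, 121 with DESeq2, 77 without a filter, 23 with the replicate block, and 7 to 764 with 1 library left out (764 without THY-Tau22 2, 41 without THY-Tau22 1, 14 without WT 1, 7 without WT VEH 1, 13 without TAU VEH 1 and 10 without TAU VEH 2). Library size alone put the median difference of all genes at -0.133 in place of -0.040. The untrained calls were mostly lower (1 higher, 3 lower) but mostly higher with the likelihood ratio test (37 and 14), without a filter (73 and 52), with the replicate block (25 and 12), without THY-Tau22 1 (12 and 3) and without THY-Tau22 2 (6 and 1), as with DESeq2. None of the 98 genes for which every setting was run reversed in direction, but 25 of 59 list medians, none of them tested, changed sign in at least 1 setting. Without THY-Tau22 1 this held for fibroblasts (-0.33), mural cells (-0.21) and endothelial cells (-0.03), and without THY-Tau22 2 for the cerebellum (-0.17), delayed effectors (-0.09) and GABA-A receptors (-0.06). The 98 genes kept their side of the threshold in 1317 of the cases run, passed it newly in 140 and lost it in 13. List medians moved by more than the spread between replicates, pooled within WT and THY-Tau22, in 82 cases and by less in 803. The coefficient of variation between mice was 0.129 in the untrained fit and 0.104 in the 14-library fit.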
